A study of Homo sapiens with 12 samples.

Results

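The 55 genes described here encode proteins of mitosis, the spindle and cytokinesis. They were chosen by symbol, from the mitotic kinases and cyclins to the motors and scaffolds of the dividing cell. All 55 were found in a count table of 39266 genes, and all 55 passed the filter on low counts that left 20820 genes for testing. During mitosis the kinase CDK1, bound to A- and B-type cyclins, drives the cell into division. The spindle checkpoint holds the anaphase-promoting complex inactive until every chromosome is attached to spindle microtubules, and the complex then destroys securin and the cyclins so that sister chromatids part and the cell divides. The messages of most of these proteins are made in a wave in late S and G2 phase, when the MuvB complex with the transcription factors MYBL2 and FOXM1 occupies a promoter element called the cell cycle homology region (CHR), and in resting cells MuvB takes part in the repressing DREAM complex.

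The RNA came from PC9-OR, a subline of the established lung adenocarcinoma line PC9 that is called resistant to osimertinib, and its poly(A) fraction was sequenced. PC9 depends on an activating mutation of the receptor kinase EGFR, which osimertinib (OSI) inhibits. Dauricine (DAC) is an alkaloid made by plants. Cells were left as Control or received OSI, DAC or both compounds (DAC+OSI), with 3 libraries in each of these groups, and the labels give the same resistant line for all of them. Doses, exposure times, the agent given to Control and whether PC9-OR is a single clone are not stated in the labels. Nothing says that the 3 libraries of a group came from separate cultures, and the p-values rest on a spread among libraries that may be technical only.

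Libraries held 24909151 to 66866253 counts. Levels are in CPM, counts of a gene per mega-count of its library, with library sizes adjusted between libraries (TMM). Where a gene had no count, a true level below 0.0449 to 0.12 CPM (3 counts) cannot be seen, for counting error only. This floor was taken from library totals before that adjustment. In the Control and DAC+OSI groups the second library departed from the other members of its group in a way that tracked gene GC content. Spearman's rho between GC content and how far a library deviated from its group mean was 0.56 in Control 2 and 0.57 in DAC+OSI 2 across 20443 genes, which are not independent replicates. It was -0.52 to -0.37 in the remaining Control and DAC+OSI libraries and -0.09 to 0.06 with OSI or DAC alone. Deviations within a group balance out for each gene, so these negative values in Control and DAC+OSI partly follow from library 2. Across the 55 mitosis genes, whose GC content had a median of 43.2% (35.3% to 60.5%) against 49% for the genes tested, rho was 0.79 in Control 2 and 0.76 in DAC+OSI 2. Counts of called genes over all 55 are therefore also given from a fit of the other 10 libraries, as are counts of smaller groups where that fit moves them by more than 1.5 times. That fit also called more genes of the whole table. The shares with OSI, DAC and DAC+OSI against Control were 21.5%, 13.1% and 20.8% higher and 20.8%, 12.8% and 20.2% lower, and the counts from it are read against these. The epithelial markers of a lung cancer line were present, at a summed level of 9720 to 20200 CPM, while the lung lineage factor NKX2-1 lay between 0 and 0.148 CPM.

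The promoters of these genes were searched for the CHR, and letters that match it were found in 37 of the 48 genes with a promoter window. RefSeq promoter windows of build GRCh38.p14, from 250 bases before to 50 after an annotated start, were available for 48 of the 55 genes, as 59 windows. TPX2, UBE2C, TTK, RACGAP1, FOXM1, BIRC5 and AURKA were not matched. The CHR was searched as TTTGAA or TTCGAA and the CCAAT box as CCAAT, each on both strands. The first set below shows 24 bases on each side of the CHR nearest the start for genes described later, with CHR and CCAAT matches of either strand in capitals. In CDCA8 both motifs overlap.
CCNB2, chr15:59105093-59105146, plus strand: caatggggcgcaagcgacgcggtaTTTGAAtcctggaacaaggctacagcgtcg
PLK1, chr16:23678836-23678889, plus strand: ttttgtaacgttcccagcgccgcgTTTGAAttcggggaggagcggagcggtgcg
CKS1B, chr1:154974627-154974680, plus strand: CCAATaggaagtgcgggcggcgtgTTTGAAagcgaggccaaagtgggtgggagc
CDC20, chr1:43358892-43358945, plus strand: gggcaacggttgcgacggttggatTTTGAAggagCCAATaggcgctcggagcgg
BUB1B, chr15:40161022-40161075, plus strand: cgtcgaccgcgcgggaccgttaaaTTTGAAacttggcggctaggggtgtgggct
CDCA3, chr12:6851260-6851313, minus strand: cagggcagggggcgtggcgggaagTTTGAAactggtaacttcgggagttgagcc
CDCA8, chr1:37692469-37692522, plus strand: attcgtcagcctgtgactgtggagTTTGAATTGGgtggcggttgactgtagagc
KIF4A, chrX:70290046-70290099, plus strand: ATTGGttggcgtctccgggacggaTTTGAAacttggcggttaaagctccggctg
KIF23, chr15:69414270-69414323, plus strand: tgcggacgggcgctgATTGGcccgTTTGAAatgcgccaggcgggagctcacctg
NCAPG, chr4:17810920-17810973, plus strand: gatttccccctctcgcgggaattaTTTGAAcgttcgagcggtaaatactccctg
HMMR, chr5:163460586-163460639, plus strand: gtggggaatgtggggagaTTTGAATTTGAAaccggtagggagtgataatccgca
The first base of the motif lay at -29 in CCNB2 and PLK1, -30 in CKS1B, -65 in CDC20, -23 in BUB1B and CDCA8, -3 in CDCA3, -34 in KIF4A, -55 in KIF23, -35 in NCAPG and -22 in HMMR, counting the first transcribed base as 0. All of these but HMMR are among the genes called in DAC+OSI against Control below.

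The next pair shows the 250 bases before the start of a gene with TTTGAA or TTCGAA and of one with neither. Only these letters were searched, so the second gene is not shown to lack the element. CCNB2, which encodes cyclin B2, has 1 CHR match downstream of 4 CCAAT boxes. KIF20A, which encodes a kinesin of the central spindle, has 2 CCAAT boxes and no match to TTTGAA or TTCGAA in this window.
CCNB2, chr15:59104896-59105145, plus strand: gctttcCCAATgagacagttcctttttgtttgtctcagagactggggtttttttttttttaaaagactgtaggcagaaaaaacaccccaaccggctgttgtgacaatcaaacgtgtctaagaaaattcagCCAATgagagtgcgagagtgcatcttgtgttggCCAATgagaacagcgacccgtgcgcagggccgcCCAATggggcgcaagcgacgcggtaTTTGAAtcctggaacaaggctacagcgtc
KIF20A, chr5:138178862-138179111, plus strand: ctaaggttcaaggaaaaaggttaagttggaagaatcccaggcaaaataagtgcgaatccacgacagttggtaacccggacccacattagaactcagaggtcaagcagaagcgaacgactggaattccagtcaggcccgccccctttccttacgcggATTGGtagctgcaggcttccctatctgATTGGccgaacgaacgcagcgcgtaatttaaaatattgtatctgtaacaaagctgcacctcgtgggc
Both genes were among those with the smallest adjusted p in several comparisons below.

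A CHR was found in 40 of the 59 windows (67.8%; 37 of 48 genes), against 16.4% of all 35116 windows of the table and 12.4% of the 18764 windows of genes tested. Between -100 and +49 the shares were 61%, 7.37% and 5.2%. Of the 37 genes, 23 had the nearest CHR between -40 and -1, and its median position was -23 (-151 to 40). The CCAAT box was found in 72.9% of the windows against 34.6% of all windows, and an E2F-type motif (TTCCCGC or TTGGCGC, both strands) in 22% against 9.23%. In 42 windows of DNA replication genes the CHR was found in 4.76%, with 0 matches between -100 and +49, and the E2F-type motif in 61.9%. A match is a description of letters, not of a bound site. The median log2 fold change in DAC+OSI against Control was -1.76 for the 37 genes with TTTGAA or TTCGAA and -1.83 for the 11 with neither. Other letters were not searched, so this split does not separate genes with and without the element. It cannot show what the element does.

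**Figure D1:**
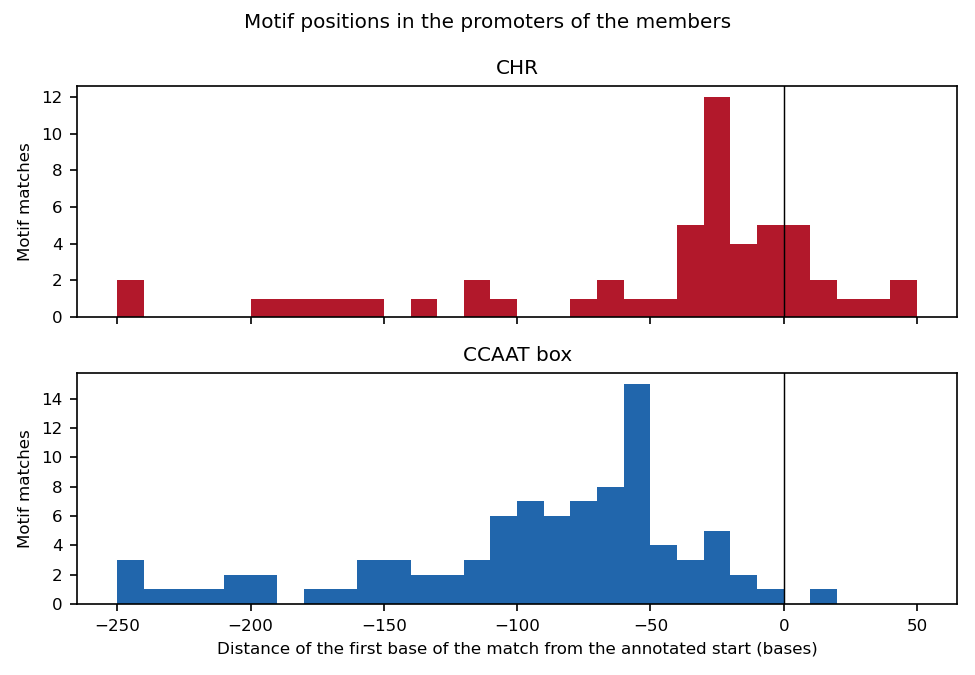
Positions of CHR (top) and CCAAT box (bottom) matches in the 59 promoter windows of 48 mitosis genes, as the number of matches per bin against the distance in bases from the annotated start (vertical line). Genes with several windows can add a match more than once. CHR matches gather just before the start, where 23 of 37 genes have their nearest one between -40 and -1, and CCAAT boxes gather farther upstream.

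The mitosis genes were highest in OSI, lower in Control, lower again in DAC and lowest in DAC+OSI. The summed level of the 55 genes was 2679, 2280 and 2635 CPM in the Control libraries, 3531, 3469 and 3339 CPM in OSI, 1528, 1631 and 1422 CPM in DAC, and 909.8, 728.2 and 804.9 CPM in DAC+OSI. The groups did not overlap in this sum, and library 2 was the lowest of its group in Control and in DAC+OSI. Group means followed the order OSI, Control, DAC, DAC+OSI in 50 of the 55 genes, and all 12 libraries followed it without overlap in 23, against 0.538% of all genes tested. Of the 5 exceptions, CENPE and KIF14 had their highest mean in Control and CKS2 had a slightly higher mean in Control than in OSI, while NUSAP1 and PRC1 had a higher mean in DAC+OSI than in DAC. Every DAC+OSI library lay below every other library in 46 genes, against 4.85% of all genes tested. In bulk RNA fewer cells in mitosis and less message per cell cannot be told apart.

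**Figure D2:**
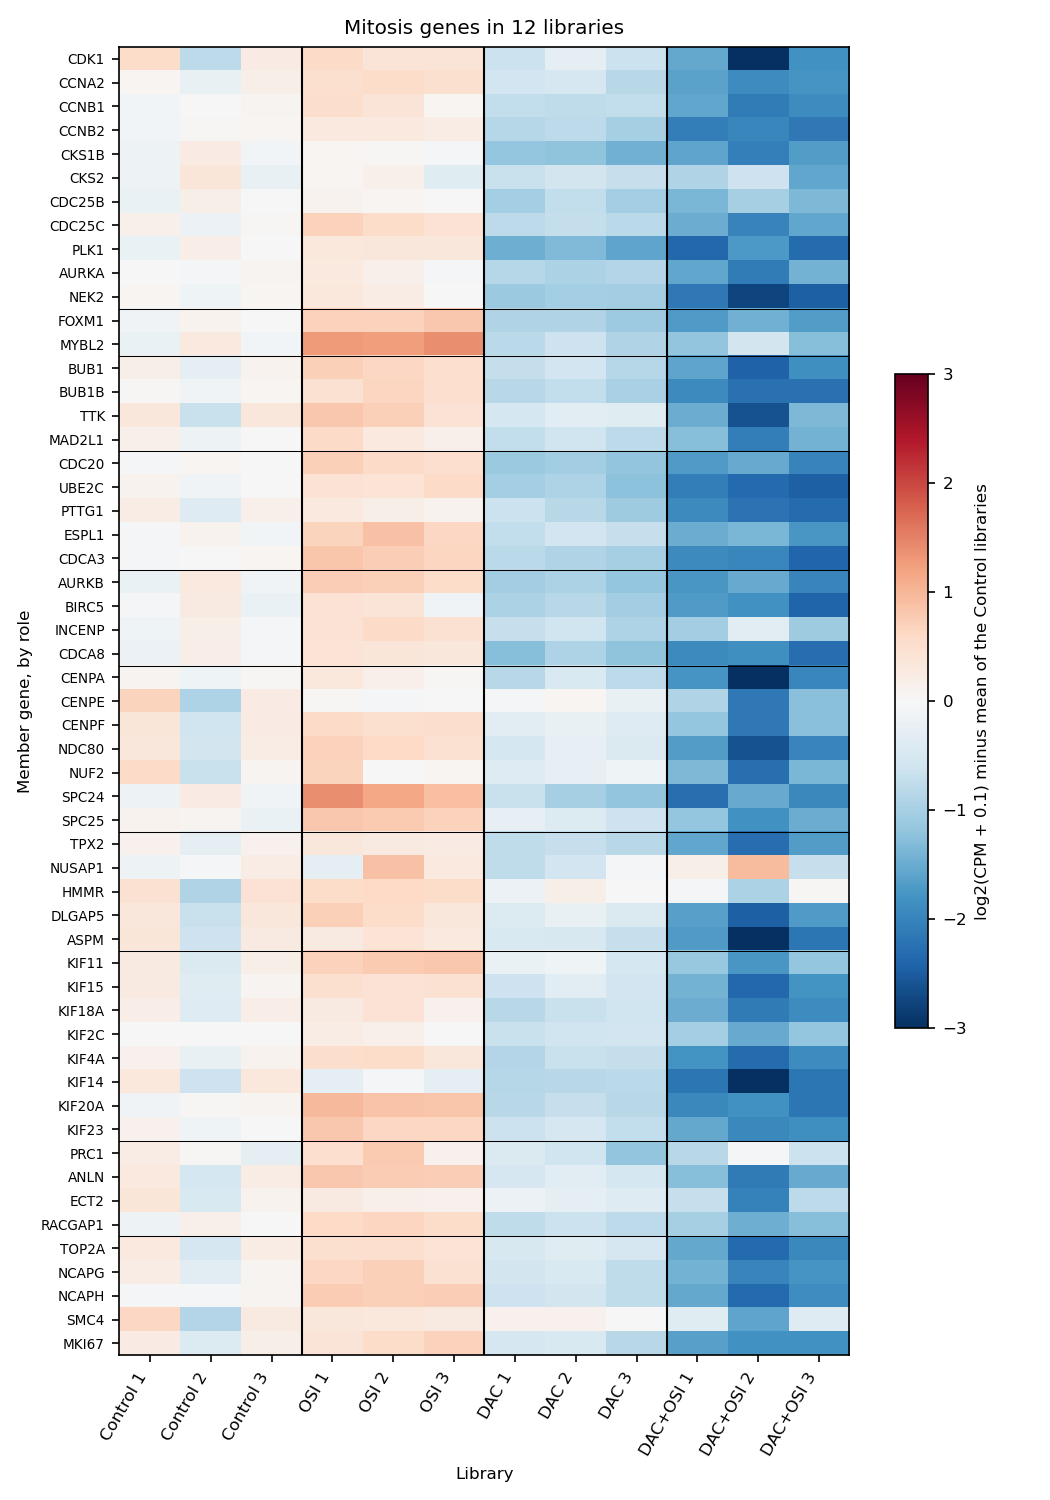
Heat map of the 55 genes (rows, ordered by role, with lines between roles) in the 12 libraries (columns), as log2(CPM + 0.1) minus the mean of the Control libraries. Red is higher and blue is lower than Control, and the colour scale ends at -3 and 3. Nearly all rows turn red in OSI, pale blue in DAC and dark blue in DAC+OSI, while NUSAP1, HMMR and PRC1 do not follow in DAC+OSI.

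Genes were tested with the quasi-likelihood test of edgeR and called at a Benjamini-Hochberg adjusted p under 0.05 over all genes tested. Control libraries are shared by the first 3 comparisons, and other comparisons share groups in the same way, so their values are set side by side only. With OSI alone, 21 of the 55 genes were called higher and 0 lower, against 10.6% and 8.23% of all genes, and the median log2 fold change was 0.47. All 3 OSI libraries lay above all 3 Control libraries in 33 of the 55, against 21.5% of all genes. With DAC alone, 33 were called lower and 0 higher, against 4.11% and 5.33%, with a median of -0.72. All 3 DAC libraries lay below all 3 Control libraries in 39, against 19% of all genes. With DAC+OSI against Control, 51 were called lower and 0 higher, against 12.8% and 15.4%, with a median of -1.77, which is a fold of 3.418. The median over all genes lay between -0.01 and 0.04 in every comparison.

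The number called depended most on single libraries in the comparisons of 1 compound with Control. With OSI it was 13 without Control 2, 13 without OSI 1, 11 without OSI 2 and 32 without DAC+OSI 2, and 33 in the 10-library fit, of which 31 were higher and 2, CENPE and KIF14, lower. With DAC it was 21 without DAC 3 and 52 in the 10-library fit. With DAC+OSI it stayed between 51 and 53 when any 1 library was left out, and was 53 in the 10-library fit. The median log2 fold changes in that fit were 0.35, -0.77 and -1.77 with OSI, DAC and DAC+OSI. With all libraries these medians were 0.47, -0.72 and -1.77, so the rise with OSI was smaller in the 10-library fit. Under every one of 20 alternatives 11 of the 21 calls with OSI held (FOXM1, MYBL2, CDC20, ESPL1, CDCA3, SPC24, SPC25, KIF20A, KIF23, RACGAP1 and NCAPH), as did 20 of the 33 with DAC and 48 of the 51 with DAC+OSI.

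Adding DAC to OSI lowered 52 of the 55 genes and raised 0, against 7.96% and 9.01% of all genes, with a median log2 fold change of -2.29, a fold of 4.886. Adding OSI to DAC lowered 45 and raised 0, against 4.52% and 6.1%, with a median of -1.10. DAC against OSI gave 45 lower and 0 higher, against 10.5% and 10.2%, with a median of -1.14. The 10-library fit called 54, 52 and 53 in these comparisons, against 19.8%, 11.2% and 23.8% of all genes lower. In DAC+OSI against DAC the number was 31 when only these groups were fitted.

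**Figure D3:**
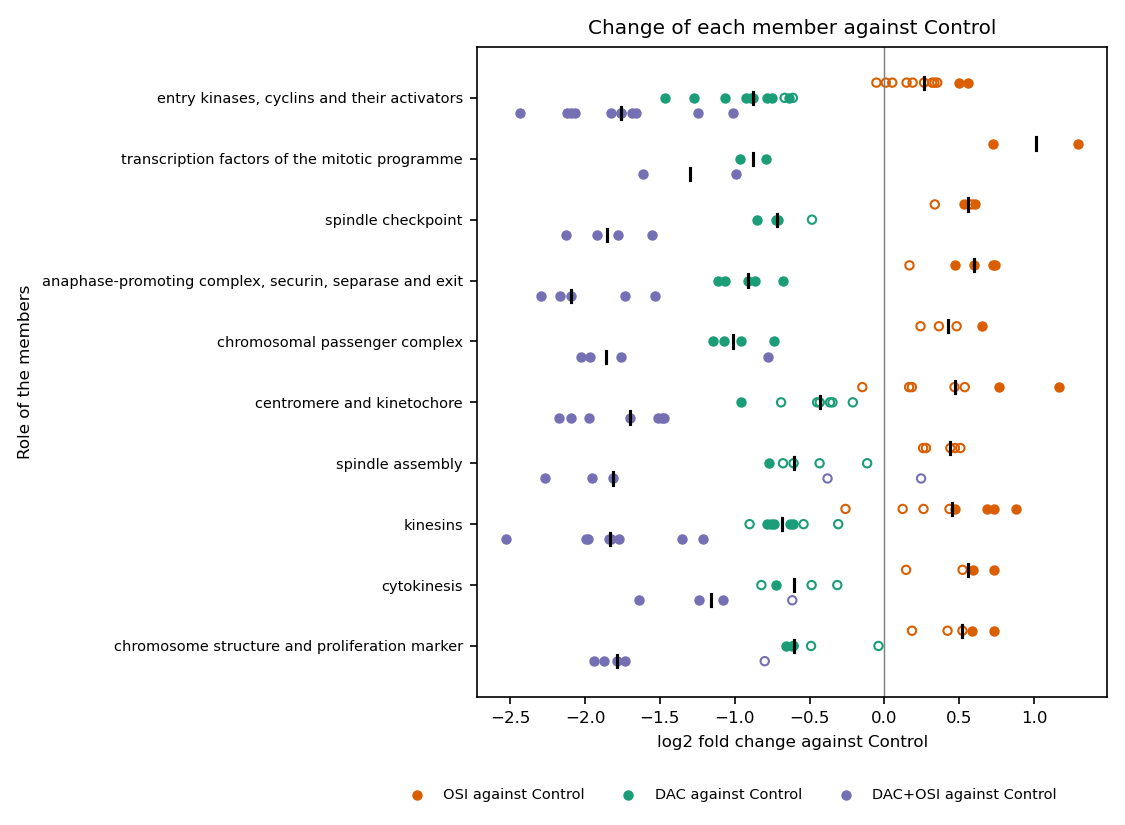
Log2 fold change against Control (x axis) of each of the 55 genes, grouped by role (y axis), for OSI, DAC and DAC+OSI. Filled points were called by edgeR at an adjusted p under 0.05, open points were not, and short vertical lines are the medians of a role. OSI points lie mostly right of 0 and DAC points left of 0, and the DAC+OSI median lies farther left than the DAC median in every role. In DAC+OSI the point of NUSAP1 lies right of 0.

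The first role group is the machinery of mitotic entry, of which 2 of 11 genes rose with OSI, 9 fell with DAC and all 11 fell with DAC+OSI. The matching shares of all genes tested were 10.6% higher with OSI, 4.11% lower with DAC and 12.8% lower with DAC+OSI, and the counts of the roles and lists below stand against the same shares. With so few genes in a role, the 2 that rose with OSI are not far from the share of all genes. The 10-library fit called 5 of the 11 higher with OSI. CCNB2 had 37.5, 40.3 and 41.0 CPM in Control, 48.5, 48.2 and 45.9 CPM in OSI, 22.0, 22.8 and 19.8 CPM in DAC, and 9.27, 10.2 and 8.91 CPM in DAC+OSI. No library of a group overlapped another group, and the groups ran in the order of the summed levels. CCNB2 fell 4.2-fold with DAC+OSI against Control (log2 fold change -2.07 ± 0.12, SE; adjusted p = 1.41e-07), and 2.28-fold with DAC+OSI against DAC (adjusted p = 4.37e-05). CCNB1, which encodes the other main mitotic cyclin, fell 3.55-fold with DAC+OSI (adjusted p = 3.43e-06). CCNA2, whose cyclin A acts in S and G2 phase, rose 1.41-fold with OSI (adjusted p = 0.0231) and fell 3.39-fold with DAC+OSI (adjusted p = 2.04e-06). The OSI call of CCNA2 did not hold under every alternative (adjusted p up to 0.0796).

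PLK1, a kinase of mitotic entry, centrosomes and cytokinesis, had 80.5, 107 and 92.9 CPM in Control and 117, 117 and 117 CPM in OSI. It had 33.8, 37.1 and 30.8 CPM in DAC and 18, 28.2 and 18.6 CPM in DAC+OSI. Each group was separate from the next, and DAC+OSI 2 came closest to the DAC libraries. PLK1 fell 2.76-fold with DAC (log2 fold change -1.46 ± 0.17, SE; adjusted p = 0.000228) and 4.36-fold with DAC+OSI (adjusted p = 2.66e-06). With DAC+OSI against DAC it fell 1.58-fold (adjusted p = 0.0277), a call lost under 10 of 20 alternatives. CKS1B, which encodes a small subunit of cyclin-dependent kinase complexes, had 132, 173 and 138 CPM in Control, 153, 150.3 and 142 CPM in OSI, 65.6, 63.4 and 54.3 CPM in DAC, and 49, 35.5 and 45.7 CPM in DAC+OSI. OSI and Control overlapped, while both groups with DAC were lower than both without it. CKS1B fell 2.41-fold with DAC (adjusted p = 0.000214) and 3.39-fold with DAC+OSI (adjusted p = 3.36e-06).

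The other entry genes moved in the same direction with DAC+OSI. NEK2, a kinase that separates centrosomes, fell 5.41-fold (adjusted p = 4.06e-07), from 30.3, 26.5 and 30.5 CPM to 6.48, 4.23 and 5.27 CPM. AURKA, a centrosome kinase that activates PLK1, fell 3.17-fold (adjusted p = 9.44e-06). The phosphatase genes CDC25C and CDC25B, whose products remove inhibitory phosphates from CDK1, fell 3.22-fold and 2.37-fold. CDK1 itself fell 4.27-fold, from 136, 54.1 and 111 CPM in Control to 32.4, 11.4 and 26.3 CPM, with library 2 the lowest of both groups (adjusted p = 0.000822). CKS2, a close relative of CKS1B, fell 2.01-fold with DAC+OSI (adjusted p = 0.00599). Per kilobase of exon CKS2 and CKS1B had the highest Control levels of the 55, at 69.4 and 63.1 CPM per kilobase.

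Both transcription factors of the mitotic programme rose with OSI and fell with DAC. FOXM1 had 67.4, 78.1 and 73.0 CPM in Control, 118, 117 and 127 CPM in OSI, 39.1, 38.6 and 34.3 CPM in DAC, and 22.4, 26.7 and 22.6 CPM in DAC+OSI. The groups did not overlap. FOXM1 rose 1.66-fold with OSI (adjusted p = 0.000803), fell 1.95-fold with DAC (adjusted p = 0.000295) and fell 3.05-fold with DAC+OSI (adjusted p = 1.09e-06). MYBL2, the MYB factor that joins MuvB, had 71.5, 101 and 77.4 CPM in Control and 199, 198 and 217 CPM in OSI. It had 46.8, 53.3 and 44.1 CPM in DAC and 36.0, 55.8 and 34.2 CPM in DAC+OSI, so that these groups overlapped. MYBL2 rose 2.46-fold with OSI (adjusted p = 0.000418) and fell 1.73-fold with DAC (adjusted p = 0.0198, up to 0.109 over the alternatives). In DAC+OSI against DAC its log2 fold change was -0.20, with an approximate 95% interval from -0.61 to 0.21 (adjusted p = 0.53). Against OSI it fell 4.26-fold in DAC (adjusted p = 1.14e-05) and 4.89-fold in DAC+OSI (adjusted p = 4.78e-06).

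In the spindle checkpoint all 4 genes fell with DAC+OSI. BUB1B, which encodes the checkpoint protein BubR1, had 33.7, 30.6 and 34.1 CPM in Control, 44.9, 51.4 and 46.2 CPM in OSI, 18.5, 19.5 and 16.7 CPM in DAC, and 8.64, 6.91 and 6.88 CPM in DAC+OSI. Its groups did not overlap. BUB1B rose 1.45-fold with OSI (adjusted p = 0.0111; up to 0.062 over the alternatives), fell 1.8-fold with DAC (adjusted p = 0.00148) and fell 4.37-fold with DAC+OSI (adjusted p = 3.13e-07). The kinetochore kinase gene BUB1 fell 3.78-fold with DAC+OSI (adjusted p = 1.53e-05), and TTK, whose kinase MPS1 starts checkpoint signalling, 3.44-fold (adjusted p = 0.000916). MAD2L1, which encodes the checkpoint protein that binds CDC20, fell 2.93-fold (adjusted p = 7.46e-05).

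All 5 genes grouped with the anaphase-promoting complex, securin, separase and mitotic exit fell with DAC and with DAC+OSI, and 4 of them rose with OSI. The OSI call of UBE2C held under 14 of 20 alternatives (adjusted p up to 0.0975). CDC20, the activator of the complex, had 71.4, 76.5 and 72.6 CPM in Control, 120.3, 110.0 and 104 CPM in OSI, 33.9, 35.9 and 32.4 CPM in DAC, and 22.7, 25.6 and 18.2 CPM in DAC+OSI. UBE2C, its ubiquitin-conjugating enzyme, had 59.3, 50.7 and 54.9 CPM in Control, 74.1, 73.2 and 81.8 CPM in OSI, 26.9, 28.9 and 23.3 CPM in DAC, and 12.9, 10.9 and 9.92 CPM in DAC+OSI. In both genes the groups did not overlap. CDC20 rose 1.52-fold with OSI (adjusted p = 0.00622) and fell 2.16-fold with DAC (adjusted p = 0.000237). UBE2C fell 4.89-fold with DAC+OSI (log2 fold change -2.29 ± 0.14, SE; adjusted p = 2.38e-07), and 6.8-fold with DAC+OSI against OSI (adjusted p = 9.56e-08).

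CDCA3, which encodes an F-box-like protein of mitotic entry, had 23.3, 24.1 and 25.3 CPM in Control, 42.9, 40.4 and 38.2 CPM in OSI, 13.7, 12.8 and 12.1 CPM in DAC, and 6.34, 6.13 and 4.6 CPM in DAC+OSI. Its libraries kept the group order without overlap. CDCA3 fell 7.15-fold with DAC+OSI against OSI (adjusted p = 9.56e-08). ESPL1, the gene of separase, which cuts cohesin, rose 1.65-fold with OSI (adjusted p = 0.00186) and fell 2.9-fold with DAC+OSI (adjusted p = 3.86e-06). PTTG1, the gene of securin, fell 1.82-fold with DAC (adjusted p = 0.00812) and 4.48-fold with DAC+OSI (adjusted p = 2.85e-06), and was not called with OSI, at 55.8, 51.4 and 49.5 CPM against 53.4, 35.1 and 51 CPM in Control.

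The chromosomal passenger complex corrects faulty attachments and marks the site of division. All 4 of its genes fell with DAC and with DAC+OSI. The DAC call of INCENP held under 15 of 20 alternatives (adjusted p up to 0.135) and that of BIRC5 under 19 (up to 0.0603). CDCA8, which encodes borealin, fell 2.22-fold with DAC (adjusted p = 0.000625) and 4.08-fold with DAC+OSI (adjusted p = 1.63e-06). AURKB, the kinase of the complex, rose 1.57-fold with OSI (adjusted p = 0.0122; up to 0.0827 over the alternatives) and fell 3.38-fold with DAC+OSI (adjusted p = 6.69e-06). BIRC5, which encodes survivin, fell 3.9-fold with DAC+OSI (adjusted p = 1.87e-05). INCENP, the scaffold of the complex, had 42.2, 45.5 and 36.0 CPM in DAC and 33.5, 54.5 and 32.7 CPM in DAC+OSI. DAC+OSI 2 was the highest of the 6 libraries, and these groups overlapped through it only. The GC content of INCENP was 59.6%. INCENP fell 1.72-fold with DAC+OSI against Control (adjusted p = 0.00697; up to 0.0612 over the alternatives). Against DAC its log2 fold change was -0.04, with an interval from -0.44 to 0.36 (adjusted p = 0.908). In the 10-library fit it was -0.32 and was called (adjusted p = 0.0115).

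At the centromere and kinetochore all 7 genes fell with DAC+OSI, 1 fell with DAC and 2 rose with OSI. In the 10-library fit 6 fell with DAC, and with OSI 4 rose and 1 fell. SPC24, a subunit of the NDC80 complex that binds microtubules, had 6.53, 8.64 and 6.77 CPM in Control, 19.2, 16.3 and 13.7 CPM in OSI, 4.56, 3.59 and 3.13 CPM in DAC, and 1.44, 2.48 and 1.82 CPM in DAC+OSI. It had the largest fall of the 55 with DAC+OSI against OSI, 8.8-fold (log2 fold change -3.14 ± 0.23, SE; adjusted p = 1.53e-06), and its groups did not overlap. SPC25 of the same complex rose 1.7-fold with OSI (adjusted p = 0.00851) and fell 2.79-fold with DAC+OSI (adjusted p = 7.5e-05). NDC80 and NUF2, the other subunits, fell 4.26-fold (adjusted p = 6.02e-05) and 3.25-fold (adjusted p = 0.00155) with DAC+OSI.

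The centromeric histone gene CENPA fell 4.52-fold with DAC+OSI (adjusted p = 5.59e-05), and CENPF, which encodes a kinetochore protein of G2 and M phase, fell 2.85-fold (adjusted p = 0.000833). CENPE, which encodes a kinetochore kinesin, had 25.9, 8.57 and 19.4 CPM in Control, 16.6, 15.7 and 16.4 CPM in OSI, 15.8, 16.9 and 13.9 CPM in DAC, and 8.71, 3.6 and 6.83 CPM in DAC+OSI. Control 2 lay below both of the other Control libraries and below every OSI and DAC library. CENPE fell 2.77-fold with DAC+OSI against Control (adjusted p = 0.0068; up to 0.0612 over the alternatives).

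Among the spindle assembly genes 3 of 5 fell with DAC+OSI. TPX2, an activator of AURKA at spindle microtubules, had 149, 113 and 148 CPM in Control, 173, 165 and 160.3 CPM in OSI, 79.5, 84.6 and 76.4 CPM in DAC, and 46.3, 28.0 and 42.4 CPM in DAC+OSI. TPX2 kept the group order without overlap and fell 3.51-fold with DAC+OSI (adjusted p = 9.01e-06). ASPM, whose product focuses spindle poles, fell 4.82-fold (adjusted p = 0.000147) and DLGAP5, a spindle microtubule binding protein, 3.87-fold (adjusted p = 0.000155). HMMR, the gene of a hyaluronan receptor that also acts at spindle poles, had 17.3, 6.61 and 17.0 CPM in Control and 12, 6.42 and 12.7 CPM in DAC+OSI, with library 2 the lowest of each group. HMMR was not called in any comparison in the fit that gives the values here, and against Control its interval in DAC+OSI ran from -1.06 to 0.30 (log2 fold change -0.38; adjusted p = 0.405). Other settings called it lower, in DAC+OSI against OSI under 4 of 20 alternatives (adjusted p from 0.00012 to 0.179), among them DESeq2 and no filter on low counts. HMMR was also called lower in DAC+OSI against Control under 2 of 20, and in DAC against OSI under 3 of 20 (adjusted p from 3.91e-05 to 0.415).

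All 8 kinesin genes fell with DAC+OSI. KIF20A had 32.1, 35.7 and 36.7 CPM in Control, 67.9, 62.5 and 62.0 CPM in OSI, 19.6, 21.6 and 19.4 CPM in DAC, and 9.07, 9.87 and 7.64 CPM in DAC+OSI. The groups did not overlap, and the lowest OSI library had more than any Control library. KIF20A rose 1.84-fold with OSI (log2 fold change 0.88 ± 0.12, SE; adjusted p = 0.000324) and fell 3.94-fold with DAC+OSI (adjusted p = 3.98e-07). With DAC+OSI against OSI it fell 7.26-fold (adjusted p = 5.05e-08). KIF23, the motor subunit of centralspindlin, rose 1.61-fold with OSI (adjusted p = 0.00313) and fell 3.42-fold with DAC+OSI (adjusted p = 1.61e-06). KIF4A, a chromokinesin, fell 1.69-fold with DAC (adjusted p = 0.00829) and 3.98-fold with DAC+OSI (adjusted p = 1.96e-06).

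KIF14, a kinesin of cytokinesis, had the largest fall of the 55 with DAC+OSI against Control, 5.77-fold (log2 fold change -2.53 ± 0.30, SE; adjusted p = 4.82e-05). It had 27.1, 14.3 and 27.2 CPM in Control, 18, 21.5 and 17.8 CPM in OSI, 12, 12.4 and 12.4 CPM in DAC, and 4.79, 1.99 and 4.77 CPM in DAC+OSI. Control 2 lay below the OSI libraries while the other Control libraries lay above them. KIF11, the bipolar kinesin that pushes spindle poles apart, rose 1.66-fold with OSI (adjusted p = 0.0209; up to 0.0627 over the alternatives) and fell 2.55-fold with DAC+OSI (adjusted p = 0.000317). KIF15, which shares that role, fell 3.55-fold (adjusted p = 5.77e-05), and KIF18A, which damps chromosome movements, 3.57-fold (adjusted p = 2.65e-05). The microtubule depolymerase gene KIF2C fell 2.31-fold (adjusted p = 2.63e-05).

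Of the 4 other cytokinesis genes 3 fell with DAC+OSI. RACGAP1, the partner of KIF23 in centralspindlin, rose 1.51-fold with OSI (adjusted p = 0.00755), fell 1.65-fold with DAC (adjusted p = 0.00493) and fell 2.36-fold with DAC+OSI (adjusted p = 2.44e-05). ANLN, the gene of the contractile ring scaffold anillin, had 105, 59.4 and 101 CPM in Control, 151, 146 and 143 CPM in OSI, 60.7, 68.9 and 59.7 CPM in DAC, and 35.4, 19.5 and 30.1 CPM in DAC+OSI. Control 2 overlapped the DAC libraries, and ANLN fell 3.11-fold with DAC+OSI (adjusted p = 0.000178). ECT2, which activates RhoA at the division site, fell 2.12-fold with DAC+OSI (adjusted p = 0.0124; up to 0.082 over the alternatives).

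PRC1, which encodes a bundler of midzone microtubules, and NUSAP1, which encodes a spindle-associated protein, were counted at low levels. PRC1 had 1.13, 0.994 and 0.788 CPM in Control and 0.497, 0.924 and 0.577 CPM in DAC+OSI. NUSAP1 had 0.194, 0.213 and 0.278 CPM in Control and 0.266, 0.535 and 0.104 CPM in DAC+OSI, and in both genes these groups overlapped. In DAC+OSI against Control the log2 fold change was -0.62 for PRC1 (interval -1.33 to 0.10; adjusted p = 0.188) and 0.24 for NUSAP1 (interval -1.09 to 1.58; adjusted p = 0.808). In the GENCODE 29 annotation 58.4% of the exonic bases of PRC1 and 62.2% of those of NUSAP1 are shared with exons of other genes, and in PRC1 mainly with ENSG00000284946. That gene had 4.26, 4.21 and 4.73 CPM in Control and 2.01, 0.584 and 1.51 CPM in DAC+OSI, a log2 fold change of -1.61 (adjusted p = 0.00102). The submitters' annotation and rule for shared exons are not given in the sources. Reads of PRC1 and NUSAP1 may be split among overlapping genes, so both are reported as uncertain.

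Among the genes of chromosome structure and the proliferation marker MKI67, 4 of 5 fell with DAC+OSI. MKI67 had 181, 114 and 174 CPM in Control, 201, 224 and 248.7 CPM in OSI, 108, 112 and 86.0 CPM in DAC, and 49.4, 43.3 and 43.1 CPM in DAC+OSI. Its groups did not overlap, although Control 2 came close to the DAC libraries. MKI67 fell 3.45-fold with DAC+OSI (adjusted p = 1.1e-05). The condensin gene NCAPH rose 1.66-fold with OSI (adjusted p = 0.00704) and fell 3.66-fold with DAC+OSI (adjusted p = 5.11e-06). NCAPG of the same complex fell 3.32-fold (adjusted p = 2.04e-05), with 33.1% of its exonic bases shared with exons of other genes. TOP2A, the topoisomerase that untangles chromatids, fell 3.84-fold (adjusted p = 3.24e-05). SMC4, the ATPase subunit of condensin, had 84.8, 29.95 and 66.5 CPM in Control and 43.3, 18.3 and 42.1 CPM in DAC+OSI, with library 2 the lowest of each group, and was not called (log2 fold change -0.80, interval -1.53 to -0.07; adjusted p = 0.0975). In the 10-library fit SMC4 and HMMR were called lower with DAC+OSI, at -0.83 (adjusted p = 6.24e-07) and -0.48 (adjusted p = 0.00193).

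**Figure D4:**
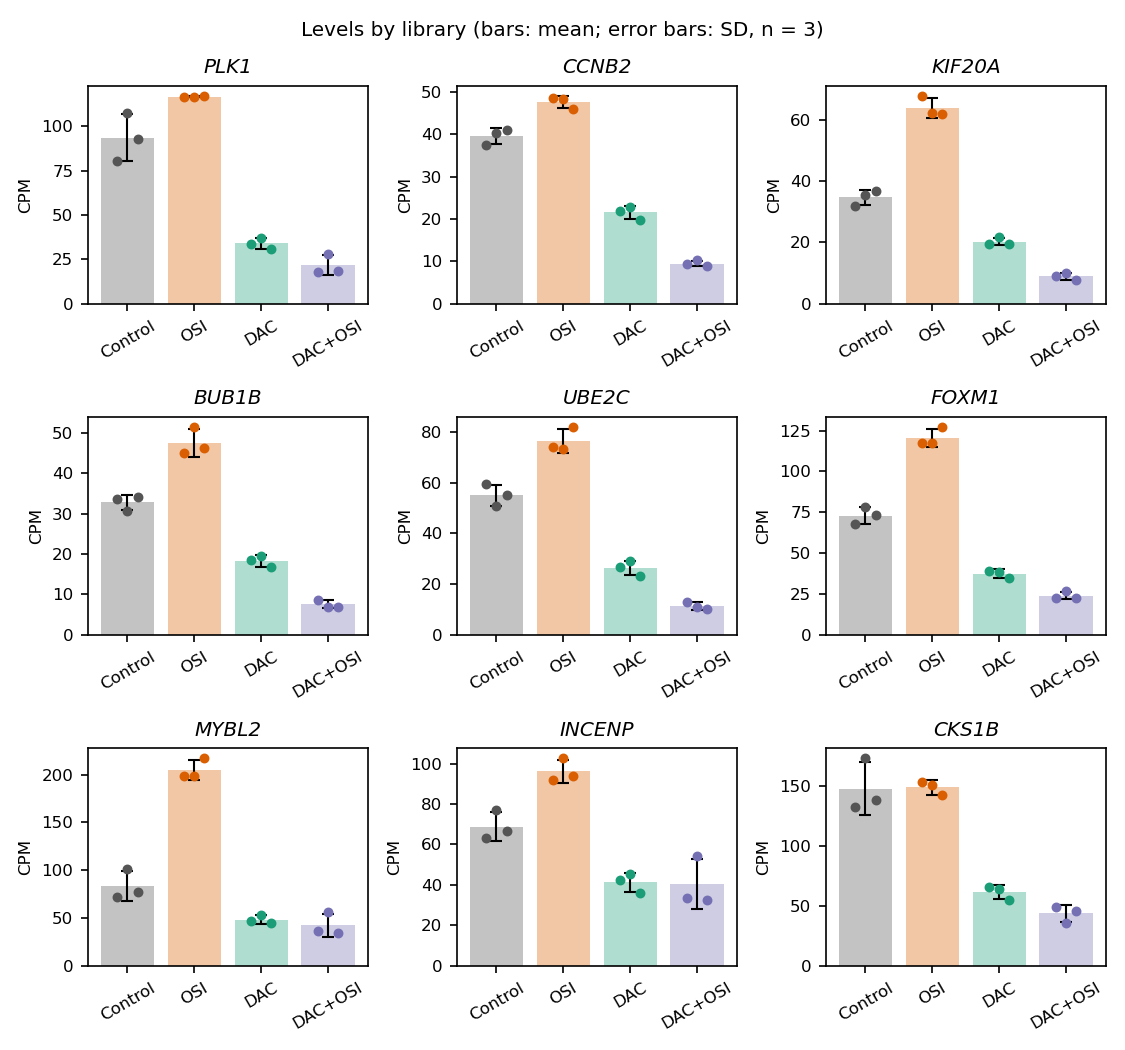
Level of 9 genes in CPM (y axis, from 0) in each library (points), with the group mean (bars) and SD (error bars, n = 3). PLK1, CCNB2, KIF20A, BUB1B, UBE2C and FOXM1 step down from OSI to DAC+OSI without overlap, MYBL2 and INCENP have overlapping DAC and DAC+OSI libraries, and CKS1B has overlapping Control and OSI libraries.

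The 10 genes not called in DAC+OSI against DAC with all libraries include 4 that fell with DAC against Control: CKS1B, CDC25B, MYBL2 and INCENP. The log2 fold change of CKS1B was -0.49 (interval -0.81 to -0.17; adjusted p = 0.0522), that of CDC25B -0.32 (interval -0.63 to -0.01; adjusted p = 0.176) and that of CKS2 -0.34 (interval -0.84 to 0.16; adjusted p = 0.376). For ECT2 it was -0.77 (interval -1.38 to -0.16; adjusted p = 0.104, and 0.0327 with the replicate number as a block) and for SMC4 -0.76 (interval -1.49 to -0.03; adjusted p = 0.175). NUSAP1, PRC1 and HMMR complete the list. These intervals reach from falls larger than 1 log2 unit in ECT2 and SMC4 to small rises in CKS2, so a lack of change was not shown. In the 10-library fit every gene of this list except NUSAP1, PRC1 and HMMR was called lower. That fit drops libraries that deviate from their groups, which by itself lowers the spread. For the genes it called, the lack of a call with all libraries therefore depended on the libraries fitted.

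The interaction asks whether DAC acted differently with OSI than without it, as the log2 change by DAC among OSI-treated libraries less the log2 change by DAC among the rest. It was negative beyond the threshold in 41 of the 55 genes and positive in 0, against 1.91% and 1.01% of all genes, with a median of -1.49. DAC lowered these genes more in OSI-treated than in untreated cells. KIF20A had the smallest adjusted p: DAC changed it by -0.78 log2 units without OSI and by -2.86 with OSI, an interaction of -2.08 ± 0.18 (SE; adjusted p = 0.000151). In CDCA3 these effects were -0.91 and -2.84, with an interaction of -1.93 ± 0.19 (SE; adjusted p = 0.000345). In BUB1B they were -0.85 and -2.66, with an interaction of -1.81 ± 0.18 (SE; adjusted p = 0.000345). In SPC24 they were -0.96 and -3.14, with an interaction of -2.18 ± 0.31 (SE; adjusted p = 0.00259).

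The same contrast can be read from the side of OSI, which raised KIF20A by 0.88 log2 units without DAC and lowered it by 1.20 with DAC present (-1.20, adjusted p = 0.000109). For FOXM1 the effect of OSI was 0.73 without DAC and -0.65 with DAC. Not called were CDK1, CKS1B, CKS2, CDC25B, INCENP, CENPE, NUF2, NUSAP1, HMMR, KIF2C, KIF14, PRC1, ECT2 and SMC4, with adjusted p from 0.061 in KIF2C to 0.875 in NUSAP1. The interval of CKS1B ran from -0.95 to -0.05 and that of CDK1 from -2.90 to -0.77. With the replicate number as a block CDK1 and NUF2 were called, at adjusted p = 0.025 and 0.0203. The number called was 51 in the 10-library fit, against 10.4% of all genes lower in that fit, and 32 to 46 with 1 library left out, and 32 of the 41 calls held under every one of 19 alternatives.

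**Figure D5:**
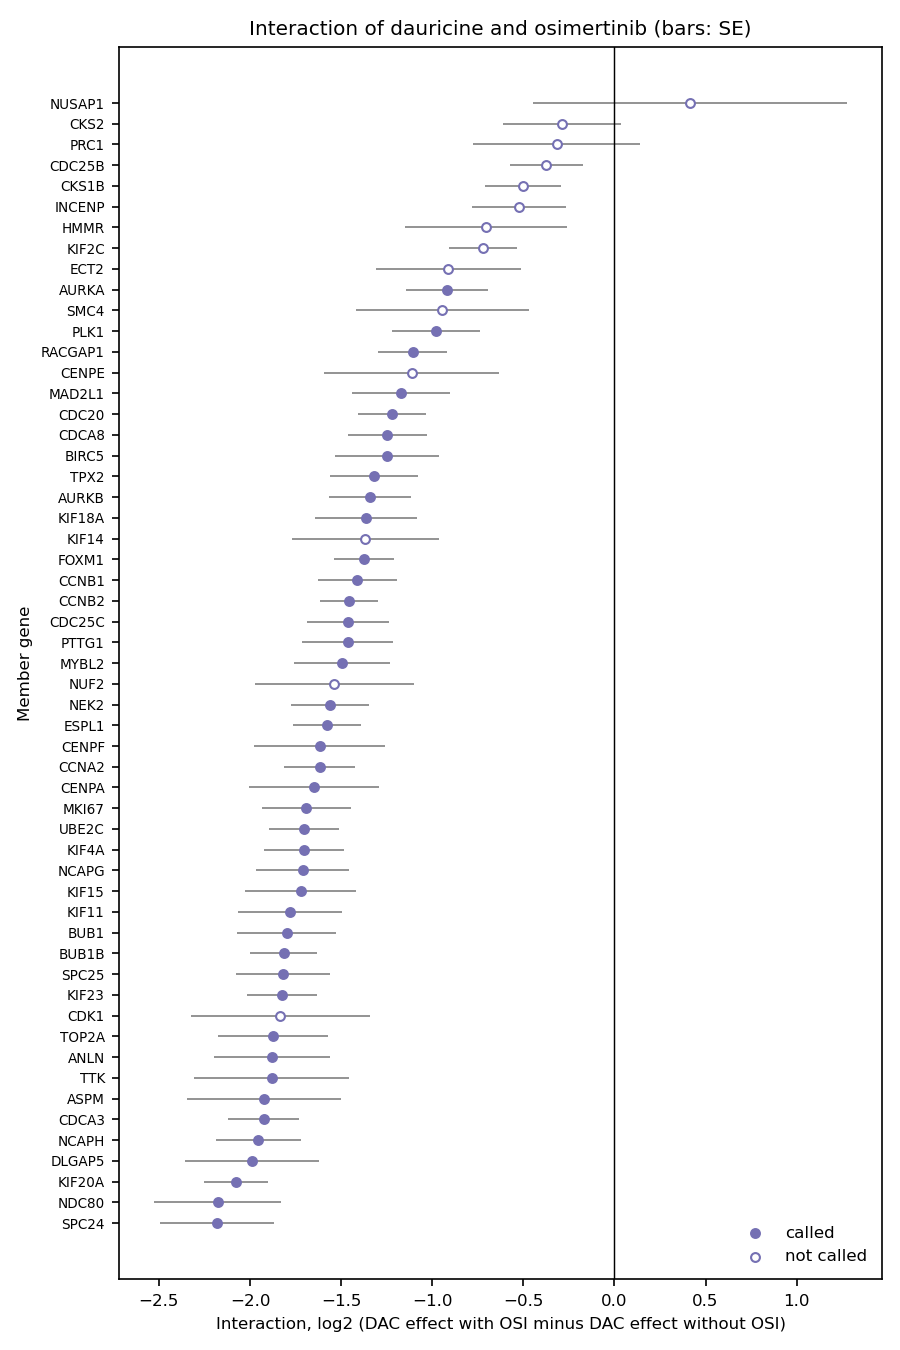
Interaction of DAC and OSI for each of the 55 genes (y axis) in log2 units (x axis) with its SE (bars). Filled points were called by edgeR at an adjusted p under 0.05 and open points were not. The 41 filled points lie between -2.18 and -0.92, and NUSAP1 is the only gene right of 0.

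Other genes of division were set beside these 55, from lists drawn up with earlier results of these data known. Of 46 other spindle, kinetochore and cytokinesis genes 12 rose with OSI, 18 fell with DAC, 33 fell with DAC+OSI and 17 were called lower in the interaction, with a median of -1.16 in DAC+OSI against Control. In the 10-library fit 38 fell with DAC and 32 were called lower in the interaction. SKA1, a kinetochore microtubule coupler, fell 5.87-fold (adjusted p = 9.87e-07), TROAP, a spindle-associated protein, 5.8-fold (adjusted p = 5.8e-07) and KIFC1, a minus-end kinesin, 3.42-fold (adjusted p = 5.63e-07). Of 11 other mitotic kinases and phosphatases 5 fell with DAC+OSI, among them the centriole kinase gene PLK4, 3.34-fold (adjusted p = 2.25e-05). Of 7 other checkpoint genes tested 2 fell: TRIP13, an ATPase that disassembles checkpoint complexes, 3.19-fold (adjusted p = 3.62e-06), and BUB3, 1.69-fold (adjusted p = 0.000857). The 10-library fit called 4 of these 7 lower.

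Lists of core complexes were counted in the same way, against the shares of 15.4% of all genes higher and 12.8% lower with DAC+OSI. Of 18 genes of the anaphase-promoting complex and its regulators 5 fell with DAC+OSI, with a median of -0.31, and ANAPC7 fell 1.9-fold (adjusted p = 5.12e-05). Of 12 cohesin genes 3 fell, of which CDCA5, the gene of sororin, fell 3.04-fold (adjusted p = 7.04e-05). In the 10-library fit 9 genes of the anaphase-promoting complex and 5 of cohesin fell and 1 of each rose. Of the 5 other condensin genes 3 fell. Of 11 genes of MuvB and DREAM 1 rose and 1 fell: RBL2, a pocket protein of the repressing complex, rose 1.76-fold (adjusted p = 0.00292) and E2F4, its DNA-binding partner, fell 1.58-fold (adjusted p = 0.00819). Neither count is above the share of all genes, and the 10-library fit gave 2 higher and 4 lower. With OSI 4 of the 11 were called higher, RBL1, RBL2, TFDP1 and TFDP2, with adjusted p between 0.029 and 0.0429. Of 12 tubulin and stathmin genes 5 fell and 1 rose, with TUBB down 2.58-fold (adjusted p = 1.92e-06). The 10-library fit called 10 lower and 1 higher, and tubulin genes share sequence that counting could split. The differences between these lists were not tested.

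Of 40 DNA replication genes, which belong to the earlier G1/S wave, 36 rose with OSI, with a median log2 fold change of 0.99 against 0.47 in the 55 mitosis genes. With DAC 6 of 40 fell, with a median of -0.27 against -0.72, and with DAC+OSI 19 of 40 fell, with a median of -0.48 against -1.77. All 40 fell with DAC+OSI against OSI, and 26 were called lower in the interaction. In the 10-library fit 20 fell with DAC, 31 with DAC+OSI, and all 40 were called lower in the interaction. ORC1, a subunit of the origin recognition complex, rose 2.65-fold with OSI (adjusted p = 4.06e-06) and fell 2.14-fold with DAC+OSI against Control (adjusted p = 1.67e-05). These medians describe the lists, and their difference was not tested.

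Markers of other cell types were low in all groups, and their sums differed between groups. The summed level of 6 fibroblast markers was 11.2 to 22.3 CPM in Control, 7.33 to 9.53 CPM in OSI, 10.4 to 11 CPM in DAC and 27.3 to 94.8 CPM in DAC+OSI, mostly from COL1A1, while DCN lay between 0 and 0.0973 CPM and LUM between 0 and 0.278 CPM. The sum of 5 haematopoietic markers was 14.2 to 21.4 CPM in Control, 10.5 to 12.3 CPM in OSI, 24.2 to 31.5 CPM in DAC and 17.4 to 59.6 CPM in DAC+OSI, which overlapped Control. That of 3 endothelial markers was 4.95 to 5.33 CPM in Control and higher in every library of the other groups, at 10.6 to 13.2 CPM in OSI, 8.65 to 9.92 CPM in DAC and 12.4 to 28.4 CPM in DAC+OSI. Their part in the changes of the mitosis genes was not tested. The share of all counts taken by the 55 mitosis genes was 0.223% to 0.271% in Control, 0.328% to 0.361% in OSI, 0.149% to 0.167% in DAC and 0.0601% to 0.0947% in DAC+OSI.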

How the data were processed

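Per the labels, poly(A) RNA of 12 libraries was fragmented, primed with random hexamers and amplified by PCR; no strand marking or molecular identifiers are described. The authors deposited raw counts of reads per Ensembl gene. The submitters' processing notes name CASAVA, HISAT2 and featureCounts; their versions, the build and the gene models are not given in the sources. A table of gene names matched 39178 of 39266 identifiers.

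Libraries were grouped by the treatment in their labels. Genes were filtered by edgeR 4.0.16 (filterByExpr, 20820 kept), library sizes were adjusted by TMM, and a quasi-likelihood model with 1 mean per group was fitted to all libraries in R 4.3.3. All tests were two-sided, p-values were adjusted over all genes tested within each of 7 comparisons, and the threshold was 0.05. The biological coefficient of variation was 20.9%. The SE is the log2 fold change divided by the square root of F, and intervals are approximate 95% intervals from it. CPM are on the same scale. Called genes named per comparison were those with the smallest adjusted p in each role. Exon lengths, GC content and exon overlap came from GENCODE 29, and promoters from RefSeq (GRCh38.p14).

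Other settings were scaling by relative log expression or by the upper quartile, no filter, DESeq2 1.42.0, limma-voom (limma 3.58.1), only the groups compared, each library left out, a replicate block, and a fit of 10 libraries without Control 2 and DAC+OSI 2. Deviations from the group mean of same-numbered Control and DAC+OSI libraries correlated at 0.285, 0.431 and 0.2, and the labels do not say what a number marks. Deviations balance out within a group, so these correlations are not independent of one another. The reported values come from the model without a block. The members, lists and alternatives were chosen with earlier results of these data known.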

Additional observations from a re-analysis of the deposited data

Results flagged for a closer look

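The effect of DAC differed between cells with and without OSI in 41 of the 55 mitosis genes by the interaction term of edgeR, which is a test of the difference itself. Of genes with the smallest adjusted p per role, the interaction in log2 units was -2.08 in KIF20A and -1.82 in KIF23 (kinesins). It was -1.93 in CDCA3 and -1.70 in UBE2C, both of the role group named for the anaphase-promoting complex. It was -1.81 in BUB1B and -1.80 in BUB1 of the spindle checkpoint, -1.82 in SPC25 and -2.18 in SPC24 of the kinetochore, and -1.34 in AURKB and -1.25 in CDCA8 of the chromosomal passenger complex. It was -1.62 in CCNA2 and -1.46 in CCNB2 of mitotic entry, -1.32 in TPX2 and -1.99 in DLGAP5 of spindle assembly, and -1.37 in FOXM1 and -1.49 in MYBL2. It was -1.88 in ANLN and -1.11 in RACGAP1 of cytokinesis, and -1.95 in NCAPH and -1.69 in MKI67. In each of these genes DAC lowered the level more in the presence of OSI. The groups have 3 libraries each, so single libraries were not tested for standing apart within a gene.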

How the results depend on the processing

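The direction of every called gene was the same under every alternative run. The number of mitosis genes called with OSI against Control was 33 in the 10-library fit against 21 with all libraries, and with DAC against Control it was 52 against 33. It was 31 against 45 in DAC+OSI against DAC when only the groups compared were fitted. With 1 library left out it lay between 11 and 32 for OSI, 21 and 42 for DAC, 51 and 53 for DAC+OSI against Control, 49 and 54 for DAC+OSI against OSI, 35 and 47 for DAC+OSI against DAC, 40 and 50 for DAC against OSI, and 32 and 46 for the interaction. The 10-library fit drops libraries that deviate from their groups, which by itself lowers the spread, so its higher counts are no independent support. With the replicate number as a block the counts were 23, 35, 51, 53, 46, 48 and 43 in the same order, and no call was lost; outside Control and DAC+OSI the numbers paired no groups, with correlations from -0.0633 to 0.0786. Only genes that were not called changed sign. NUSAP1 in DAC+OSI against Control went from 0.24 to -0.15 with limma-voom, -0.36 in the 10-library fit and -0.34 without DAC+OSI 2, and to 0.72 without DAC+OSI 3. NUSAP1 in DAC+OSI against OSI went from -0.26 to 0.20 without OSI 2 and 0.22 without DAC+OSI 3, and to -0.85 without DAC+OSI 2. Its interaction went from 0.41 to -0.12 in the 10-library fit and -0.15 without DAC+OSI 2, and to 0.93 without DAC+OSI 3. PRC1 in DAC+OSI against DAC went from 0.21 to -0.0308 in the 10-library fit and -0.038 without DAC+OSI 2, and to 0.39 without DAC+OSI 1. INCENP in DAC+OSI against DAC went from -0.04 to 0.048 without DAC 2, 0.090 without DAC+OSI 1 and 0.10 without DAC+OSI 3, and to -0.32 without DAC+OSI 2. In the 10-library fit INCENP was called lower in this comparison, at -0.32 (adjusted p = 0.0115). The causes were not tested. For genes not called with 1 compound against Control, alternatives were not tabulated one by one.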
